A study of Homo sapiens with 12 samples.

Results

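The 10 genes described here encode chemokine ligands: the CC chemokines CCL1, CCL2, CCL3, CCL4, CCL5 and CCL7, the CXC chemokines CXCL2, CXCL8 and CXCL10, and the C chemokine XCL1. They were taken by gene symbol from a table of 58381 genes measured by RNA sequencing in the HMC-1 cells, and all 10 were found in it. HMC-1 is a human mast cell line established from mast cell leukemia, and its sublines differ in KIT, the receptor tyrosine kinase for stem cell factor that drives mast cell growth and survival. HMC-1.1 carries V560G-KIT alone and HMC-1.2 carries both V560G-KIT and D816V-KIT. HMC-1.3 was made from HMC-1.2 by CRISPR/Cas9 editing that removed V560G-KIT, so that D816V-KIT on 1 allele remains. HMC-1.3 was sequenced as 2 separate clones, each grown from a single edited cell, so an effect of the edit and a trait of that clone cannot be told apart within 1 clone. Every group carries at least 1 KIT mutation, none of which is common to all 4 groups, no group has normal KIT alone, and the groups carry no drug treatment in the labels. Each group has 3 libraries of polyA RNA from wells plated in parallel, and p-values therefore measure only the spread between such cultures. HMC-1.2 replicate 1, clone 2 replicate 1 and clone 1 replicate 3 are labelled as resent, and none of HMC-1.1 is. What was resent is not stated, and a term for it in the model changed no tested member's call.

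Chemokines are secreted proteins that guide leukocytes along a concentration gradient by binding receptors of the G protein-coupled family. Many CC chemokines attract monocytes, T cells, eosinophils or mast cell progenitors, CXCL8 and CXCL2 attract neutrophils, CXCL10 attracts activated T cells through CXCR3, and XCL1 attracts dendritic cells through XCR1. Mast cells are known to make several of them, among them CCL1, CCL2, CCL3 and CXCL8, when their Fc receptor or KIT signals, and the transcription factors NF-kB, AP-1 and NFAT act on many of these genes.

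Promoter sequences help to place the genes by the factors that may read them, and 6 of the 10 members had an entry in the RefSeq promoter table of GRCh38.p14 (CCL1, CCL3, CCL7, CXCL8, CXCL2 and CXCL10). The 250 bases before the start of transcription are printed for CCL1, one of the most abundant members, and for CXCL10, the member called higher in HMC-1.3 clone 2. CCL1 is on the minus strand and its window is chr17:34363234-34363483, and CXCL10 is on the minus strand with the window chr4:76023498-76023747. Capitals mark matches to the NF-kB consensus and, in CXCL10 the first capitals, to the interferon-stimulated response element written as GAAANNGAAA.
CCL1: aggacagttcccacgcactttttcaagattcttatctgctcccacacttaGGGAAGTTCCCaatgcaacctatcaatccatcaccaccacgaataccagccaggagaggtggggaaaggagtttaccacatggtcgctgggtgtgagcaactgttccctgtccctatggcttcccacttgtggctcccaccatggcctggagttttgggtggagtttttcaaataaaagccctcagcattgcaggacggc
CXCL10: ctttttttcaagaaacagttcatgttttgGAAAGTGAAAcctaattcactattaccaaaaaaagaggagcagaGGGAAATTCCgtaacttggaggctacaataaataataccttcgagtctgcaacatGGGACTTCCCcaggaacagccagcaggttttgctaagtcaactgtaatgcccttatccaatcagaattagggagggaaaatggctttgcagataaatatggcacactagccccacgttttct

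Both strands were searched. The capitals in CCL1 are 2 overlapping matches to the NF-kB consensus that lie from 200 to 190 bases before the start. CXCL10 has 2 separate NF-kB matches, at 177 to 168 and 122 to 113 bases before the start, and the interferon element at 221 to 212 bases. CXCL2 holds 2 overlapping NF-kB matches, and CXCL8 and CCL7 hold 1 match each to the AP-1 motif TGANTCA, while the CCL3 window holds none of the 3 motifs. Among 35116 promoters of the same length in the table, 9.96% hold the NF-kB consensus, 6.57% the AP-1 motif and 3.02% the interferon element, so such matches are common and describe letters rather than binding.

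CCL3 has a near-identical copy, CCL3L3, at which reads from either gene could be counted, and its sequence is needed to read the values of CCL3. The canonical transcripts of Gencode 44 are 780 and 784 bases long and differ at 30 aligned bases (96.2% identity), and their coding sequences are 96.8% identical. The 60 coding bases below show the 4 bases in capitals that tell the genes apart in that stretch, and they lie on the minus strand of GRCh38 at chr17:36088693-36088752 for CCL3 and chr17:36195307-36195366 for CCL3L3.
CCL3: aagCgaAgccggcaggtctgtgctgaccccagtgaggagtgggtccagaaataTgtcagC
CCL3L3: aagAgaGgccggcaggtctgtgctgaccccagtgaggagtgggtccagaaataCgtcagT

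Of the 731 stretches of 50 bases in the CCL3 transcript, 72 (9.85%) occur unchanged in CCL3L3. Copy number of CCL3L and CCL4L genes differs between human genomes. The copies CCL3L1 and CCL4L1 had no entry among the genes counted, so no level can be given for them. Whether reads from them were counted on the other copies was not tested.

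The members fell into 3 expressed genes, 4 genes detected at a low level, and 3 with hardly any or no counts. Expressed means a group mean of at least 1 FPKM, a read level corrected for sequencing depth and transcript length, and detected means over 3 counts in at least 1 library. CCL1, CCL2 and CCL3 were expressed, CCL4, CCL5, CXCL8 and CXCL10 were detected below that level, CCL7 never passed 2 counts, and CXCL2 and XCL1 had 0 counts in all 12 libraries, which allows up to 3 counts, or 0.0695 to 0.103 CPM (counts scaled to the library total) depending on the library. This limit covers counting error only. The XCL1 copy XCL2 was also at 0 in all 12 libraries. The filter on low counts kept 6 members for testing (CCL1, CCL2, CCL3, CCL5, CXCL8 and CXCL10), and the other 4 have counts only.

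CCL1 and CCL2 stood far above the other members in every group. CCL1, which attracts T helper 2 and regulatory T cells through CCR8, lies on chromosome 17 from 34360328 to 34363233, on the minus strand, and has 3 exons. Its levels in FPKM were 182, 175 and 175 in HMC-1.2, 31.5, 32.7 and 32.0 in HMC-1.1, 23.5, 21.8 and 26.9 in HMC-1.3 clone 1, and 36.6, 37.4 and 35.7 in HMC-1.3 clone 2. All HMC-1.2 libraries lay far above the other 9, and the libraries of the 4 groups did not overlap. The means were 177 ± 3.81 in HMC-1.2, 36.6 ± 0.84 in clone 2, 32.1 ± 0.606 in HMC-1.1 and 24.0 ± 2.59 in clone 1 (SD, n = 3 each).

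Against HMC-1.2, CCL1 was 7.74-fold lower in HMC-1.3 clone 1 (log2 fold change -2.95 ± 0.06 SE, adjusted p = 1.8e-16), by the quasi-likelihood test of edgeR, Benjamini-Hochberg adjusted over 15944 genes, which gave every adjusted p printed here. It was 5.12-fold lower in HMC-1.3 clone 2 (log2 -2.36, edgeR adjusted p = 1.4e-15) and 5.90-fold lower in HMC-1.1 (log2 -2.56, edgeR adjusted p = 5.6e-16). Between the low groups the differences were small, although their tests passed: clone 1 was 1.31-fold lower than HMC-1.1 (edgeR adjusted p = 8.0e-04) and clone 2 was 1.15-fold higher (edgeR adjusted p = 0.018). Neither reached the 1.5-fold change also required for a call, and clone 1 was 1.51-fold lower than clone 2 (edgeR adjusted p = 1.1e-06). That call sits at the 1.5-fold line and was lost without clone 1 replicate 1 (log2 -0.58) and without replicate 2 (log2 -0.55).

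CCL2, also called MCP-1 and a monocyte attractant through CCR2, was the next member, on chromosome 17 from 34255274 to 34257208 on the plus strand. Its levels were 161, 159 and 174 FPKM in HMC-1.2, 67.2, 64.5 and 55.1 in clone 2, 29.9, 31.6 and 33.4 in HMC-1.1, and 24.7, 24.9 and 23.1 in clone 1. The libraries of the 4 groups did not overlap. The order was HMC-1.2 (165 ± 8.15), clone 2 (62.2 ± 6.36), HMC-1.1 (31.6 ± 1.79) and clone 1 (24.2 ± 1.01), and each neighbour differed from the next by edgeR's test. HMC-1.1 and clone 1 lay nearest, 1.29-fold apart (edgeR adjusted p = 0.0041), below the fold required for a call. CCL2 was 7.06-fold lower in clone 1 than in HMC-1.2, 2.77-fold lower in clone 2 and 5.46-fold lower in HMC-1.1. The clones differed 2.55-fold (log2 -1.35 for clone 1 minus clone 2, 95% interval -1.51 to -1.19, edgeR adjusted p = 2.1e-10), and clone 2 was 1.97-fold above HMC-1.1. CCL2 is a gene that the study itself singled out from these samples, so these differences are not independent evidence of their direction.

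**Figure D1:**
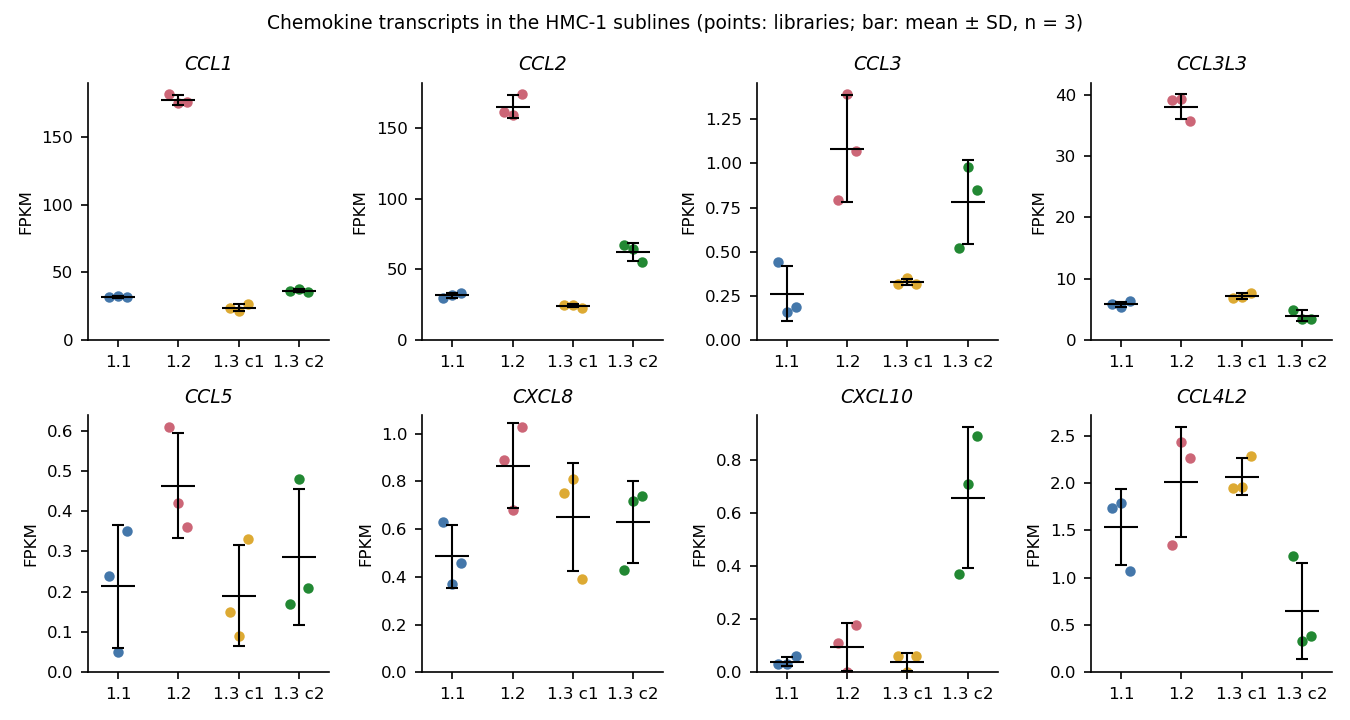
Level of 6 members and of the copies CCL3L3 and CCL4L2 in FPKM (vertical axes, each starting at 0) in the 2 clones of HMC-1.3, in HMC-1.2 and in HMC-1.1. Points are libraries and bars are the mean ± SD of 3, and CCL1, CCL2 and CCL3L3 stand highest in HMC-1.2 while CXCL10 stands highest in clone 2.

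CCL1 and CCL2 both lie in a run of 6 chemokine genes on chromosome 17, over 108 kb, in the order CCL2, CCL7, CCL11, CCL8, CCL13 and CCL1. The 4 genes between the ends had at most 6 counts in a library, and 0 to 2 for the member CCL7. CCL7, also called MCP-3 and placed from 34270221 to 34272242 on the plus strand, acts on monocytes and eosinophils. The high levels of this run were thus counted at its ends, while the genes inside it were near or at 0 in every group.

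CCL3 codes for MIP-1alpha, which attracts macrophages and T cells, and lies on chromosome 17 from 36088256 to 36090169. The level counted on CCL3 was low, at 0.79, 1.39 and 1.07 FPKM in HMC-1.2, 0.52, 0.98 and 0.85 in clone 2, 0.32, 0.35 and 0.32 in clone 1, and 0.44, 0.16 and 0.19 in HMC-1.1. The HMC-1.2 and clone 2 libraries overlapped, and the clone 1 and HMC-1.1 libraries overlapped below them. CCL3 was 3.31-fold lower in clone 1 than in HMC-1.2 (log2 -1.72 ± 0.42 SE, edgeR adjusted p = 0.0017) and 4.24-fold lower in HMC-1.1 (log2 -2.08, edgeR adjusted p = 5.7e-04; -2.67 without HMC-1.1 replicate 1). The test of clone 2 against HMC-1.2 did not pass (log2 -0.44, 95% interval -1.21 to 0.32, edgeR adjusted p = 0.34). CCL3 reached the cutoff of the filter on low counts only in libraries of HMC-1.2 and clone 2. It thus entered the test through the groups where it was high.

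The counts assigned to the copy CCL3L3 were many times those of CCL3. CCL3L3 lay at 39.2, 39.2 and 35.7 FPKM in HMC-1.2, 6.87, 7.08 and 7.70 in clone 1, 5.84, 5.46 and 6.31 in HMC-1.1, and 4.99, 3.5 and 3.44 in clone 2. It was thus the third most abundant chemokine transcript counted here, and all HMC-1.2 libraries stood above the rest. Against HMC-1.2 it was 5.51-fold lower in clone 1, 9.94-fold lower in clone 2 and 6.81-fold lower in HMC-1.1, and the largest edgeR adjusted p of the 3 was 1.9e-12. Of the counts of the pair, CCL3 held 1.93% to 3.38% in the HMC-1.2 libraries, 4.03% to 4.9% in clone 1, 10.7% to 22.2% in clone 2, and 2.75% to 6.72% in the HMC-1.1 libraries. How the counting divided reads between the genes was not tested.

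The direction between the clones depends on which gene of the pair is read. CCL3 alone was 2.44-fold lower in clone 1 than in clone 2 (log2 -1.29 ± 0.43 SE, edgeR adjusted p = 0.017), and this call was lost without clone 1 replicate 3 (edgeR adjusted p = 0.053) or without clone 2 replicate 2 (edgeR adjusted p = 0.077). CCL3L3 was 1.80-fold higher in clone 1 (log2 0.85, edgeR adjusted p = 2.5e-05), and the summed counts of both genes were 1.56-fold higher in clone 1 (log2 0.64, edgeR adjusted p = 1.2e-04). Clone 2 against HMC-1.1 turned in the same manner: CCL3 alone was 3.13-fold higher in clone 2 (edgeR adjusted p = 0.0071) and the sum was 1.26-fold lower (log2 -0.34, edgeR adjusted p = 0.028, below the fold required for a call). The sum was lower in clone 1, clone 2 and HMC-1.1 than in HMC-1.2, by log2 -2.44, -3.08 and -2.74, so the pair as a whole was lower in all 3 groups.

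**Figure D2:**
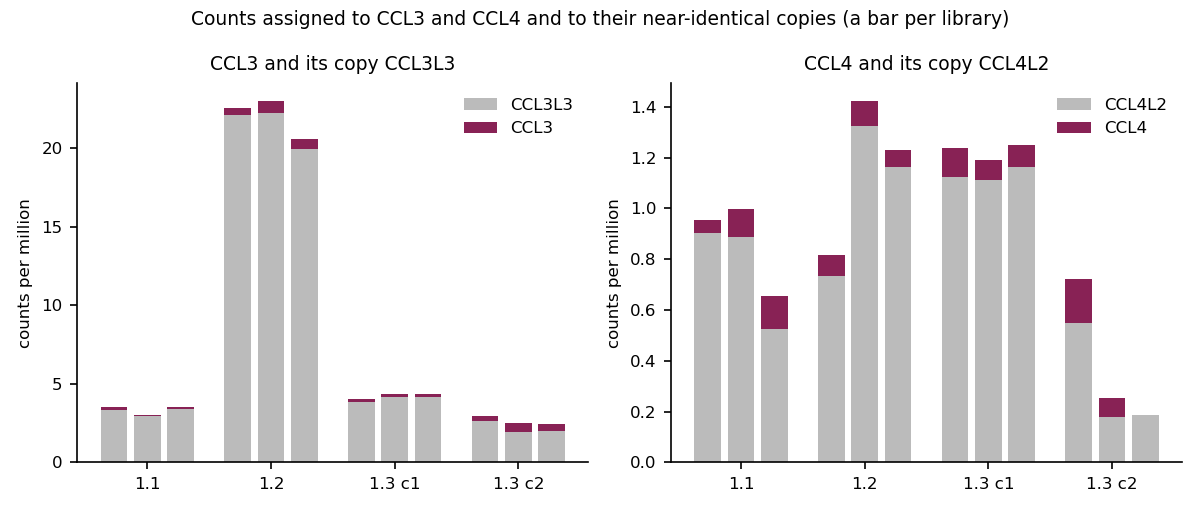
Counts scaled to the library total (CPM, vertical axis from 0) assigned to CCL3 and its copy CCL3L3 (left) and to CCL4 and its copy CCL4L2 (right), stacked in a bar for each of the 12 libraries. CCL3 holds only a small part of each bar on the left, at most 22.2%, and the HMC-1.2 bars are the tallest.

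CCL4 codes for MIP-1beta, an attractant of macrophages and T cells, from the plus strand of chromosome 17 at 36103827 to 36105621, and had 0 to 6 counts in a library, too few to test. Its copy CCL4L2 held most counts of that pair as well, with a mean of 2.01 ± 0.581 FPKM in HMC-1.2, 2.07 ± 0.193 in clone 1, 1.53 ± 0.402 in HMC-1.1 and 0.647 ± 0.506 in clone 2. CCL4L2 was 3.63-fold lower in clone 2 than in HMC-1.2 (log2 -1.86 ± 0.39 SE, edgeR adjusted p = 7.4e-04), and in clone 1 against HMC-1.2 the log2 fold change was 0.04 (95% interval -0.66 to 0.73). The sum of both genes gave log2 -1.63 for clone 2 against HMC-1.2 (edgeR adjusted p = 0.002). CCL3L3 and CCL4L2 are neighbours on the chromosome, yet only the first was lower in clone 1 by the test, and this difference between the genes was not itself tested.

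CCL5, known as RANTES and an attractant of T cells and eosinophils, lies on the minus strand of chromosome 17 from 35871491 to 35880793 and was low in all groups. Its counts were 23, 15 and 12 in HMC-1.2, 10, 2 and 15 in HMC-1.1, 6, 4 and 13 in clone 1, and 6, 21 and 10 in clone 2. Its mean level was 0.463 ± 0.131 FPKM in HMC-1.2 and between 0.190 and 0.287 in the other groups, and no neighbouring groups in the order differed by the test. CCL5 was not called in any of the 6 comparisons, and the largest difference from HMC-1.2 was that of clone 1 (log2 -1.28, 95% interval -2.51 to -0.09, edgeR adjusted p = 0.061). It passed without clone 1 replicate 3, the library of that clone labelled as resent (log2 -1.91, edgeR adjusted p = 0.022). In HMC-1.1 it passed without HMC-1.1 replicate 3 (log2 -1.67, edgeR adjusted p = 0.046).

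Among the CXC members, CXCL8, also called interleukin 8 and a neutrophil attractant through CXCR1 and CXCR2, lies on chromosome 4 from 73740519 to 73743716 on the plus strand. Its counts were 33, 26 and 35 in HMC-1.2, 22, 19 and 26 in HMC-1.1, 39, 34 and 20 in clone 1, and 22, 33 and 47 in clone 2. The group means lay between 0.487 and 0.867 FPKM, and both clones overlapped HMC-1.2. CXCL8 was 1.66-fold lower in HMC-1.1 than in HMC-1.2 (log2 -0.73 ± 0.30 SE, edgeR adjusted p = 0.046), and leaving out any of the 6 libraries of this comparison ended the call (edgeR adjusted p from 0.053 to 0.17). The log2 fold changes of the clones against HMC-1.2 were -0.22 (95% interval -0.82 to 0.38) and -0.19 (-0.79 to 0.40).

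CXCL10, the interferon-induced ligand of CXCR3, was the only tested member called higher in any group than in HMC-1.2. It lies on chromosome 4 from 76021118 to 76023497 on the minus strand. The counts were 12, 26 and 36 in clone 2, 4, 0 and 5 in HMC-1.2, 1, 1 and 2 in HMC-1.1, and 2, 0 and 2 in clone 1. All clone 2 libraries stood above all others, and CXCL10 entered the test only through them, so that a call had to point this way. Per depth, its summed counts in clone 2 were 6.81 times those in HMC-1.2 (74 counts against 9, 95% counting interval 3.4 to 15.5) and 16.9 times those in clone 1 (6.32 to 63.6). In the fit, clone 2 against HMC-1.2 gave a log2 fold change of 2.68 ± 0.61 SE (edgeR adjusted p = 0.0014; 3.31 without HMC-1.2 replicate 3), and clone 1 minus clone 2 gave -3.96 (edgeR adjusted p = 1.5e-04). Its level remained low, at 0.657 ± 0.264 FPKM in clone 2 against 0.0967 ± 0.0907 in HMC-1.2. CXCL11, a neighbour on chromosome 4 that also binds CXCR3 and is not a member, had 22, 26 and 15 counts in clone 2 and at most 10 elsewhere.

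CXCL2, a neutrophil attractant (chromosome 4, 74097040 to 74099196, minus strand), and XCL1, known as lymphotactin and made mainly by T and NK cells (chromosome 1, 168576605 to 168582069, plus strand), were at 0 in each library, so nothing can be compared for them.

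Counting the members by comparison, 3 of 6 tested members were called lower in clone 1 than in HMC-1.2 (CCL1, CCL2 and CCL3) and none was higher, where 20.0% of the 15944 genes tested were called, 11.8% higher and 8.18% lower. The median log2 fold change was -1.50 over the 6 members and 0.01 over all genes. In clone 2 against HMC-1.2, CCL1 and CCL2 were called lower and CXCL10 higher, where 16.5% of all genes were called, 7.98% higher and 8.51% lower, and the medians were -0.58 and -0.00. As CXCL10 entered the test only through clone 2, its call adds no support to these counts. HMC-1.1 against HMC-1.2 had 4 members lower (CCL1, CCL2, CCL3 and CXCL8), where 17.6% of all genes were called, 10.1% higher and 7.52% lower, and the medians were -1.71 and 0.01. CCL3 reached the cutoff of the filter only in libraries of HMC-1.2 and clone 2, so its lower calls in clone 1 and HMC-1.1 add no support to these counts. These 3 comparisons share the HMC-1.2 libraries, so their calls are not independent of each other. Libraries that do not overlap between groups, as for CCL1 and CCL2, were common: 64.2% of all genes for clone 1 against HMC-1.2, 56.4% for clone 2, 59.9% for HMC-1.1, and 56.7% between the clones.

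**Figure D3:**
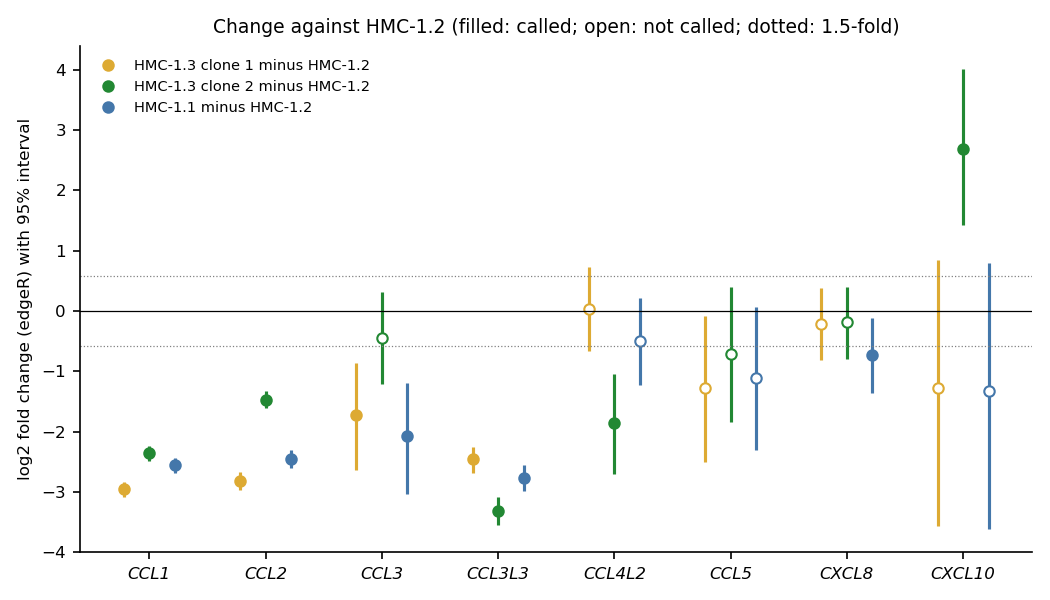
Log2 fold change against HMC-1.2 with its 95% interval (vertical axis) for 6 members and the copies CCL3L3 and CCL4L2, in HMC-1.3 clone 1, HMC-1.3 clone 2 and HMC-1.1. Filled points were called, open points were not, and dotted lines mark a 1.5-fold change. CCL1, CCL2 and CCL3L3 lie below 0 in all 3 comparisons, and CXCL10 lies at 2.68 in clone 2.

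The remaining comparisons set the 3 lower groups beside each other. No member was called between clone 1 and HMC-1.1 by edgeR, where 1.01% of all genes were called (0.671% higher and 0.339% lower, and 33.7% without overlap), although CCL1 and CCL2 had an adjusted p under the threshold with folds under 1.5. In clone 2 against HMC-1.1, CCL2, CCL3 and CXCL10 were called higher, where 8.19% of all genes were called, 3.04% higher and 5.15% lower, and 47.1% did not overlap. Between the clones, CCL1, CCL2, CCL3 and CXCL10 were called lower in clone 1, where 12.6% of all genes were called, 8.38% higher and 4.25% lower. CXCL10 entered the test only through clone 2, so its call in either comparison with clone 2 had to point to that clone. CCL3 reached the cutoff of the filter on low counts in no library of clone 1 or HMC-1.1. The calls of CXCL10 and CCL3 therefore add no support to these counts.

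Beyond the members, 36 other chemokine ligands were in the table, of which 13 were at 0, 10 had 1 to 3 counts at most and 13 had more. The 5 with a group mean of at least 1 FPKM were CCL18, CCL23, CXCL16, CCL3L3 and CCL4L2. Of the 7 tested, 4 were lower in clone 1 than in HMC-1.2 and none was higher, where 8.18% of all genes were lower and 11.8% higher. In clone 2, 4 were lower and 1 (CXCL11) was higher, beside 8.51% and 7.98% of all genes, and in HMC-1.1 4 were lower and none was higher, beside 7.52% and 10.1%. CXCL11 entered the test only through the clone 2 libraries and CCL23 only through those of HMC-1.2, so that a call of either had to point to that group, and their calls support no direction of the list. CCL23, a monocyte attractant that lies near CCL3, was 7.84-fold lower in clone 1 and 3.44-fold lower in clone 2, with means of 2.88 ± 0.211 FPKM in HMC-1.2 and 0.360 in clone 1. CCL18 was 3.31-fold lower in clone 1 (edgeR adjusted p = 8.3e-04) and 4.55-fold lower in HMC-1.1 (edgeR adjusted p = 1.8e-04). CXCL16, a membrane-bound ligand of CXCR6, was 1.66-fold lower in clone 1 and 1.99-fold lower in HMC-1.1.

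Few of the receptors that read the members' proteins were counted in these cells. Of 23 chemokine receptor genes, 4 had a group mean of at least 1 FPKM (CCR10, CXCR2, CXCR4 and ACKR2) and 6 were tested. CCR2 and CCR8, the receptors of CCL2 and CCL1, had group means of at most 0.0233 and 0.0333 FPKM. CXCR2, which binds CXCL8 and CXCL2, was 21.1-fold lower in clone 2 than in HMC-1.2 (log2 -4.40 ± 0.25 SE, edgeR adjusted p = 1.6e-10). CXCR4, the receptor of CXCL12, was 9.31-fold lower in clone 1, 7.04-fold lower in clone 2 and 8.20-fold lower in HMC-1.1. The study itself reported lower CXCR4 in both clones from these samples, so these values are not independent evidence of that direction. CCR10 went the other way, at 8.86-fold higher in clone 1, 3.08-fold higher in clone 2 and 7.16-fold higher in HMC-1.1. Clone 1 had 1 receptor higher and 2 lower than HMC-1.2, where 20.0% of all genes were called, clone 2 had 1 higher and 5 lower, where 16.5% were called, and HMC-1.1 had 1 higher and 3 lower, where 17.6% were called. The receptors counted as lower in clone 2 and in HMC-1.1 include CXCR1, which had only 3 libraries over the cutoff of the filter, 2 of HMC-1.2 and 1 of clone 1.

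Genes that regulate chemokine transcripts were measured at higher levels, and all 23 of the list were tested. Against HMC-1.2, 2 were higher and 2 lower in clone 1, 2 were higher and 1 lower in clone 2, and 1 was higher and 2 lower in HMC-1.1. The shares of all genes called in these comparisons were 20.0%, 16.5% and 17.6%, so regulators were called no more often than genes at large, and the values below describe single genes. FOS, a subunit of AP-1, fell in all 3 comparisons, by 1.67 on the log2 scale in clone 1, by 0.87 in clone 2 and by 0.71 in HMC-1.1. FOSL2, another AP-1 subunit, was 2.25-fold lower in clone 1 and 2.47-fold lower in HMC-1.1. ZFP36L1, an RNA-binding protein that speeds the decay of AU-rich messages, was higher in all 3, by log2 2.06, 1.63 and 2.07. The NF-kB subunits NFKB1 and RELA had group means between 32.9 and 45.4 FPKM, and neither was called. RELA (log2 -0.21, -0.16 and -0.26 in clone 1, clone 2 and HMC-1.1) and NFKB2 (-0.28, -0.45 and -0.42) had edgeR adjusted p under 0.05, below the fold for a call. RELB did so in clone 2 (-0.29) and HMC-1.1 (-0.21). REL went the other way in HMC-1.1 (0.33), and NFKB1 passed in none of them. NFKBIA, an inhibitor of NF-kB, was 1.65-fold higher in clone 1 (edgeR adjusted p = 5.3e-06). NFKBIE, another inhibitor of NF-kB, went the other way, at log2 -0.33, -0.30 and -0.45 in clone 1, clone 2 and HMC-1.1. Its edgeR adjusted p was under 0.05 in all 3, below the fold for a call. TNFAIP3, also on the list, passed in none of them (-0.17, -0.22 and -0.29). IRF1, which acts on interferon-induced genes such as CXCL10, was highest in clone 2 at 43.0 FPKM. There it lay 0.58 above HMC-1.2 on the log2 scale, below the fold required for a call.

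**Figure D4:**
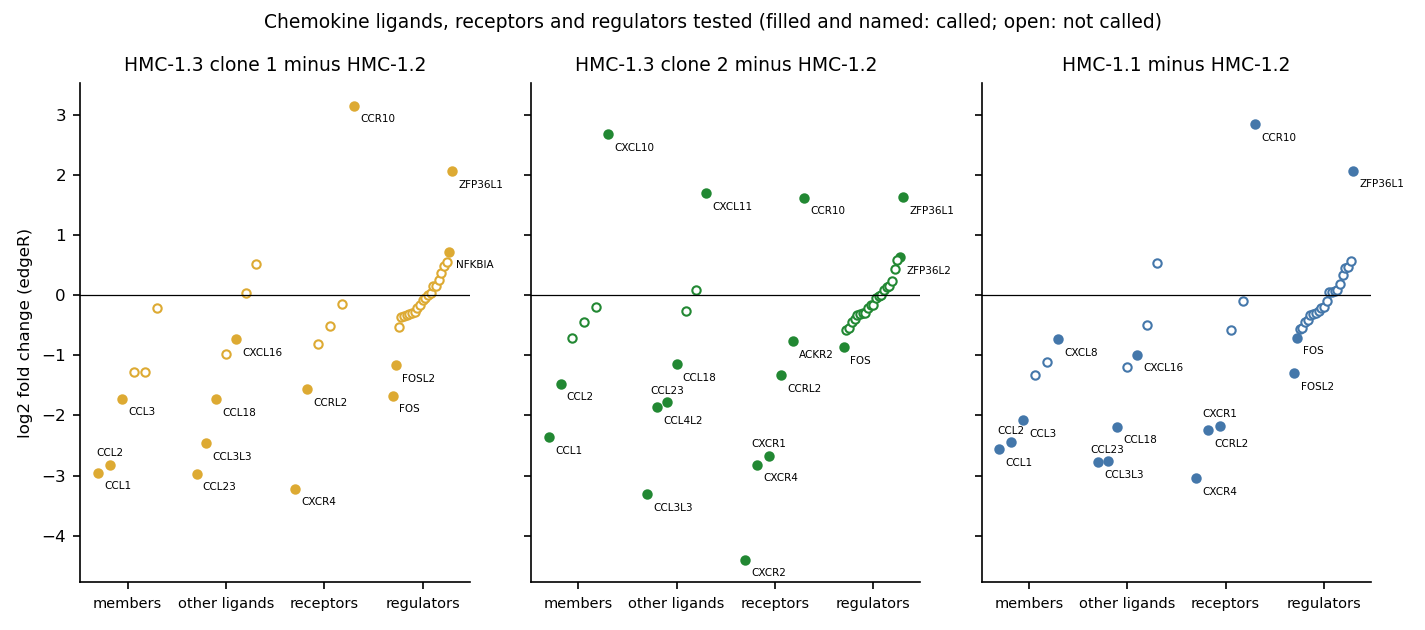
Log2 fold change against HMC-1.2 (vertical axis) of the tested members, other chemokine ligands, receptors and regulators, in HMC-1.3 clone 1, HMC-1.3 clone 2 and HMC-1.1. Each point is a gene, and filled points with a name were called. CXCR4 lies below 0 and CCR10 and ZFP36L1 above 0 in all 3 panels, and CXCL10 and CXCL11 are above 0 among the ligands of clone 2.

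The genes whose levels followed CCL2 most closely over the 12 libraries were P4HB (Pearson r = 0.994), IL7R (r = 0.993) and UBE2Z (r = 0.993), out of 13112 genes compared. P4HB, a protein disulfide isomerase of the endoplasmic reticulum, ranged from 220.0 to 308 FPKM over the groups, so the likeness is one of pattern and not of size. CCL1 had r = 0.949 and CCL3L3 r = 0.758. These values describe libraries that fall into 4 groups, and carry no test.

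The libraries held 29225900 to 43181402 counts. Of 12 mast cell markers, 9 or 10 were at 1 FPKM or more in each group, KIT, HDC, GATA2 and the tryptases among them, while the chymase gene CMA1 had at most 4 counts. The summed level of that list was 2485 to 2512 FPKM in HMC-1.2 and 1732 to 1836 elsewhere. Most of that gap is the tryptase TPSAB1, at 592 FPKM in HMC-1.2 and 29.4 to 44.2 elsewhere. The tryptase TPSB2 (96.6 against 35.0 to 40.7), SRGN (203 against 153 to 168), MS4A2 (0.353 against 0.0833 to 0.117) and HDC were also highest in HMC-1.2. In contrast, KIT (356 against 405 to 450.0), CPA3 (3.31 against 7.52 to 10.9), GATA2 (213 against 232 to 240.0) and MITF (18.8 against 21.3 to 23.7) were lowest there. The part of these markers in the changes of the members was not tested. Markers of macrophages summed to 1.6 to 2.52 FPKM, of T and NK cells to 1.76 to 3.39, of B cells to 2.86 to 6.18, of fibroblasts to at most 1.53 and of endothelial cells to at most 0.25. In bulk RNA, fewer cells making a chemokine and less RNA in each cell cannot be told apart.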

How the data were processed

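RNA from 12 libraries was sequenced after polyA capture in a stranded preparation. According to the submitters' processing notes, reads were trimmed with cutadapt 2.10, aligned with STAR 2.5.3 and counted with RSEM 1.3.0 on hg38. The authors deposited a table of RSEM expected counts and a table of FPKM per library. The study's methods name Gencode release 39 as the annotation. Gene positions are those of Gencode 44, matched by identifier (99.0% of identifiers).

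Estimated counts, 7.39% of which were not whole, were rounded. In edgeR 4.0.16 (R 4.3.3), genes were filtered with filterByExpr, scaled by TMM (factors 0.974 to 1.02) and tested with the quasi-likelihood test in 1 model of all 12 libraries. A call needed an adjusted p under 0.05 and a fold over 1.5. FPKM, as the authors deposited it, gave the levels. DESeq2 1.42.0 and limma 3.58.1 were alternatives, and the model was tested on simulated data. Libraries of a group differed by more than counting noise (chi-square per degree of freedom 2.83 to 7.67), so none was a duplicate.

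Every member and copy was named, with up to 4 called genes per list and comparison with HMC-1.2, list genes with a group mean of at least 10 FPKM, and the 3 genes most correlated with CCL2. CCR2, CCR8, ACKR2, the genes between CCL2 and CCL1 and the markers were named after their values were seen. The members, lists and tests were chosen with earlier results of these data known.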

Additional observations from a re-analysis of the deposited data

Results flagged for a closer look

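The clones of HMC-1.3 differed from each other in their change against HMC-1.2 for 4 members, tested as clone 1 minus clone 2 with the quasi-likelihood test of edgeR and Benjamini-Hochberg adjusted. The difference in log2 fold change was -0.60 for CCL1 (adjusted p = 1.1e-06), -1.35 for CCL2 (adjusted p = 2.1e-10), -1.29 for CCL3 (adjusted p = 0.017) and -3.96 for CXCL10 (adjusted p = 1.5e-04). The sign for CCL3 turns when its copy CCL3L3 is added. CXCL10 entered the test only through clone 2, so its sign was set in advance, and CCL3 reached the cutoff of the filter in no clone 1 library.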

How the results depend on the processing

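Each comparison was repeated under 11 other settings. Of 12 fits that each left out a library, a comparison used only those that left out a library of its 2 groups. In all 17 alternatives that this gave, CCL1, CCL2 and CCL3 in clone 1 and HMC-1.1 compared with HMC-1.2 kept their direction and their call. CCL1 and CCL2 in clone 2 compared with HMC-1.2 did so as well. CXCL10 was called in clone 2 in each, but it entered the test only through clone 2, so its direction says nothing of stability. CCL3 reached the cutoff of the filter in no clone 1 or HMC-1.1 library, which limits what its kept direction says. Summing near-identical copies turned CCL3 to 0.64 for clone 1 against clone 2 and to -0.34 for clone 2 against HMC-1.1, and raised the members called in clone 2 against HMC-1.2 to 5. A test against a 1.5-fold change (glmTreat) left 2 members called between the clones, and 1932, 1612, 1618, 9, 552 and 837 genes over the 6 comparisons (clone 1, clone 2 and HMC-1.1 against HMC-1.2, clone 1 and clone 2 against HMC-1.1, and clone 1 against clone 2). limma on log2(FPKM + 1) called 1902, 1453, 1514, 61, 566 and 969 genes, against 3193, 2630, 2803, 161, 1306 and 2013 by edgeR. For clone 1 against HMC-1.1, DESeq2 called 87 genes and fits that left out a library called 107 (without clone 1 replicate 2) to 197. CXCL8 for HMC-1.1 lost its call in 12 of 17 alternatives. CCL3 lost its call between the clones in 4 and for clone 2 against HMC-1.1 in 2, besides turning when copies were summed. CCL1 between the clones lost its call in 3. CCL5 gained a call in 3 for clone 1 and in 1 for HMC-1.1 (both against HMC-1.2). Libraries of the same replicate number were only weakly alike (correlations of deviations -0.04 to 0.10), yet 8 of 12 libraries correlated best with their own number. Whether the numbers pair the libraries was thus not settled, and the main model takes them as unpaired. With the replicate block 3 members were called in HMC-1.1 compared with HMC-1.2, where CXCL8 lost its call, and 3185 genes in clone 1 against HMC-1.2. The block changed no other member's call. The causes were not tested. At most 47 counts per library limit CCL3, CCL5, CXCL8 and CXCL10.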
